A study of Mus musculus with 12 samples.

Results

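Class II presentation genes were followed in group 2 innate lymphoid cells (ILC2s), lymphocytes that carry no rearranged antigen receptor and release type 2 cytokines. The 8 genes were chosen by name: the chain genes H2-Aa, H2-Ab1 and H2-Eb1, the peptide exchange genes H2-DMa and H2-DMb1, the invariant chain gene Cd74, the transactivator gene Ciita and the costimulatory ligand gene Cd86. They are 8 of the 29542 genes to which transcripts were summed, and all 8 passed the filter on low counts. The cells had been sorted from skin-draining lymph nodes of C57BL6 mixed bone marrow chimeras. Irradiated CD45.1 congenic hosts (950 cGy) carried 2 marrows in equal parts, one Rag1-/- and marked by CD45.2, the other WT and marked by CD90.1. IL-33, which expands ILC2s, was given to all mice daily for the last 7 days, as 30 ng per cheek with a further 240 ng intraperitoneally. The 12 libraries form 4 groups of 3: WT cells (congenic marker CD90.1) and Rag1-/- cells at 8 weeks, and WT and Rag1-/- cells at 20 weeks after transplant. Every group therefore shares the irradiated host, the mixed marrow and the IL-33, and there is no group without IL-33. The series description names another length for the later time, and the label of each sample, 20 weeks, was followed.

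MHC class II molecules carry peptides from endocytosed proteins to the cell surface, where CD4 T cells read them. An alpha and a beta chain pair in the endoplasmic reticulum with the invariant chain, which fills the groove and guides the complex to endosomes. There proteases trim the invariant chain, and the H2-DM heterodimer exchanges the remaining fragment for other peptides, a step that H2-DO restrains. Ciita switches the genes on together by joining proteins already bound to conserved X and Y boxes of their promoters. B cells, dendritic cells and macrophages are the best known class II cells, and ILC2s have been described to carry class II as well, so the markers of other cells are given beside the class II values here.

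The promoter stretches below are shown because Ciita acts through such boxes, though that of H2-DMb2 holds a match to the Y box core only. They are from RefSeq (GRCm38.p6) and are written 5′ to 3′ on the gene's strand, with matches to the X box core CTNGNAAC and the Y box core ATTGG in capitals. These letters, and the spacing of 20 to 40 bases from the start of an X core to the start of the Y core, were chosen after the promoters of these genes had been read. Both strands were searched, and the X and Y matches do not overlap.
H2-Aa: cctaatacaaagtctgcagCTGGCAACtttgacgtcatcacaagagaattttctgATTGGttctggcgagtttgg
H2-Eb1: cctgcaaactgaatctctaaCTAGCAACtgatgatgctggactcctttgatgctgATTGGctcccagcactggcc
H2-Ob: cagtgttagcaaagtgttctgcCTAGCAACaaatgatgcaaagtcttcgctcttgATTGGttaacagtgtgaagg
H2-DMb2: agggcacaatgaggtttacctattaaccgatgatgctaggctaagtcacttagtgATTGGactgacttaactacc

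The stretch of H2-Aa is chr17:34287852-34287926 on the minus strand, between annotated genes in GENCODE M21, with the Y core 48 bases before the start site. That of H2-Eb1 is chr17:34305753-34305827 on the plus strand, within an intron of the overlapping gene model Gm20513. H2-Ob, a chain of H2-DO, has the pair at chr17:34238793-34238867 on the plus strand, between annotated genes. In H2-DMb2, at chr17:34145104-34145178 on the plus strand in an intron of the gene, the Y core stands without a match to the X core in the whole promoter. The X core starts 36 bases before the Y core in H2-Aa, 35 in H2-Eb1 and 33 in H2-Ob. H2-DMb1 also holds the pair, 36 bases apart, in a stretch that overlaps an annotated exon of the gene. The 2 listed promoters of H2-DMa hold no X core, and 1 of them holds a Y core. That of H2-Eb2 holds both cores but not at this spacing, and that of H2-Oa a Y core and no X core. Of 32851 promoters from 250 bases before to 50 after a start site, 13.2% held the X core, 37.4% the Y core and 0.274% the pair at this spacing. These are matches of letters and no measure of binding.

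The libraries held 11433625 to 32529806 estimated reads. Gene levels are given as CPM, reads of a gene relative to all reads of its library, scaled with the TMM factors of edgeR, which correct for a few genes taking a large share of a library. The factors lay between 0.756 and 1.11. The lowest was that of knockout-labelled replicate 3 of 8 weeks, and the next lowest, 0.898, that of WT replicate 2 of 8 weeks. Rag1 was listed at 0 reads in all 6 WT libraries. In 5 of the 6 libraries labelled Rag1-/- it had 10.8 to 18.4 estimated reads, where loss of the whole gene would leave none. The labels do not give the removed part of the allele, and they were used as given, so the direction of each genotype difference rests on them. Earlier results of these data placed 2 libraries apart from the rest, WT replicate 2 and knockout-labelled replicate 3 of 8 weeks, and the genotype and time values are therefore also given without them. Nothing in the labels ties replicates to different animals, and p-values therefore reflect only how far these samples spread, which may be technical. In RNA from sorted pools, fewer cells of a type and less RNA per cell cannot be told apart.

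Class II transcripts were abundant in every library. The 8 genes together took 0.649% (knockout-labelled replicate 3 of 8 weeks) to 1.87% (WT replicate 2 of 8 weeks) of all estimated reads, with a median of 1.06%. Levels of different genes were compared per length, in the deposited TPM. Cd74 (ENSMUSG00000024610, chromosome 18, 60803848 to 60812652, GRCm38) had 5373 to 15780.3 TPM and ranked between place 2 and place 16 among all genes. H2-Aa (ENSMUSG00000036594, chromosome 17, 34282744 to 34287823) followed with 818 to 2246 TPM. Cd74 exceeded H2-Aa 5.05 to 9.27 times per length, with a median of 5.81 times, and their ranges did not overlap.

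The beta chain genes were lower than H2-Aa in each library. H2-Ab1 (ENSMUSG00000073421, chromosome 17, 34257689 to 34269419), the partner of H2-Aa in I-A, had 291 to 1163 TPM, or 0.356 to 0.675 of H2-Aa. H2-Eb1 (ENSMUSG00000060586, chromosome 17, 34305867 to 34316674), the beta chain of I-E, had 194 to 967 TPM, or 0.237 to 0.569 of H2-Aa. The strain is known to make no functional partner chain for it, and the pseudogene H2-Ea-ps was listed at 0 in 9 of 12 libraries and reached 0.226 CPM at most. The ranges of these neighbours overlapped. H2-DMa (ENSMUSG00000037649, chromosome 17, 34119541 to 34139101) had 202 to 374 TPM, which overlapped H2-Eb1, and exceeded it in knockout-labelled replicate 3 of 8 weeks. The retained intron transcript H2-DMa-202 held a median of 54.4% of this TPM, and in that library the coding H2-DMa-201 had 92.3 TPM, below H2-Eb1.

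H2-DMb1 (ENSMUSG00000079547, chromosome 17, 34153072 to 34160230), a beta chain for H2-DMa, had 47.1 to 87.4 TPM, below every value of H2-DMa. Its level is uncertain because 38.7% of its 20-base k-mers also occur in H2-DMb2, so the reads of both genes are divided by the model. H2-DMb2 itself had 127 to 227 TPM. The transactivator gene Ciita (ENSMUSG00000022504, chromosome 16, 10480059 to 10528418) had 3.54 to 14.5 TPM, and Cd86 (ENSMUSG00000022901, chromosome 16, 36603869 to 36666081) 0.402 to 3.44 TPM. The other 7 members shared at most 6.16% of their k-mers with other genes.

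The I-A and I-E chain genes spread widely among replicates. H2-Aa was at 2061, 1596 and 1273 CPM in WT cells and 1647, 1327 and 776 CPM in knockout-labelled cells of 8 weeks. At 20 weeks it was at 1246, 904 and 942 CPM in WT cells and 1283, 1006 and 1003 CPM in knockout-labelled cells. The lowest library was knockout-labelled replicate 3 of 8 weeks, and the genotypes overlapped at both times, while the WT libraries of 20 weeks all lay below those of 8 weeks. H2-Ab1 was at 1143, 1008 and 683 CPM in WT cells and 1193, 729.8 and 297 CPM in knockout-labelled cells of 8 weeks. Its values at 20 weeks were 794, 503 and 444 CPM against 702, 584 and 639.6 CPM. All groups overlapped, with the lowest value again in that library.

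H2-Eb1 was at 807, 506 and 634 CPM in WT cells and 987, 566 and 194 CPM in knockout-labelled cells of 8 weeks. The 20-week libraries held 639, 381 and 435 CPM against 529, 447 and 509 CPM. Knockout-labelled cells of 8 weeks held both its highest and its lowest value, a spread of 582 ± 397 CPM (SD, n = 3) against 649 ± 151 CPM in WT cells.

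The peptide exchange genes varied less. H2-DMa was at 304, 297 and 232 CPM in WT cells and 279.8, 243 and 182 CPM in knockout-labelled cells of 8 weeks. At 20 weeks its levels were 259, 189 and 196 CPM against 254, 207 and 212 CPM. All groups overlapped, and the highest library was 1.67 times the lowest. H2-DMb1 was at 97.4, 82.6 and 62.9 CPM in WT cells and 84.4, 79.0 and 54.96 CPM in knockout-labelled cells of 8 weeks. In the later libraries it was at 64.9, 53.8 and 52.3 CPM against 75.3, 53.3 and 52.2 CPM. These groups overlapped too.

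Cd74, whose product occupies the groove and sorts the dimers, was highest in WT cells of 8 weeks. It was at 14012.5, 17577 and 7783 CPM in WT cells and 11447, 10522 and 7158 CPM in knockout-labelled cells of 8 weeks. At 20 weeks it was at 7271, 5651 and 5235 CPM in WT cells and 8472, 6272 and 6143 CPM in knockout-labelled cells. The WT libraries of the 2 times did not overlap, although WT replicate 3 of 8 weeks lay close to the highest of 20 weeks.

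Ciita was at 38.1, 32.4 and 23.3 CPM in WT cells and 51.8, 37.1 and 15.9 CPM in knockout-labelled cells of 8 weeks. Its values at 20 weeks were 34.8, 29.7 and 27.1 CPM against 51.8, 32.6 and 28.4 CPM. The groups overlapped, and the lowest library was the one that was lowest for the I-A chains. Cd86, which binds CD28 and CTLA-4 on T cells, rested on 11.6 to 141 estimated reads per library. It was at 3.10, 3.56 and 1.35 CPM in WT cells and 4.77, 6.80 and 1.06 CPM in knockout-labelled cells of 8 weeks. The 20-week libraries held 0.388, 1.47 and 3.03 CPM against 2.07, 0.997 and 1.79 CPM, and all groups overlapped.

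**Figure D1:**
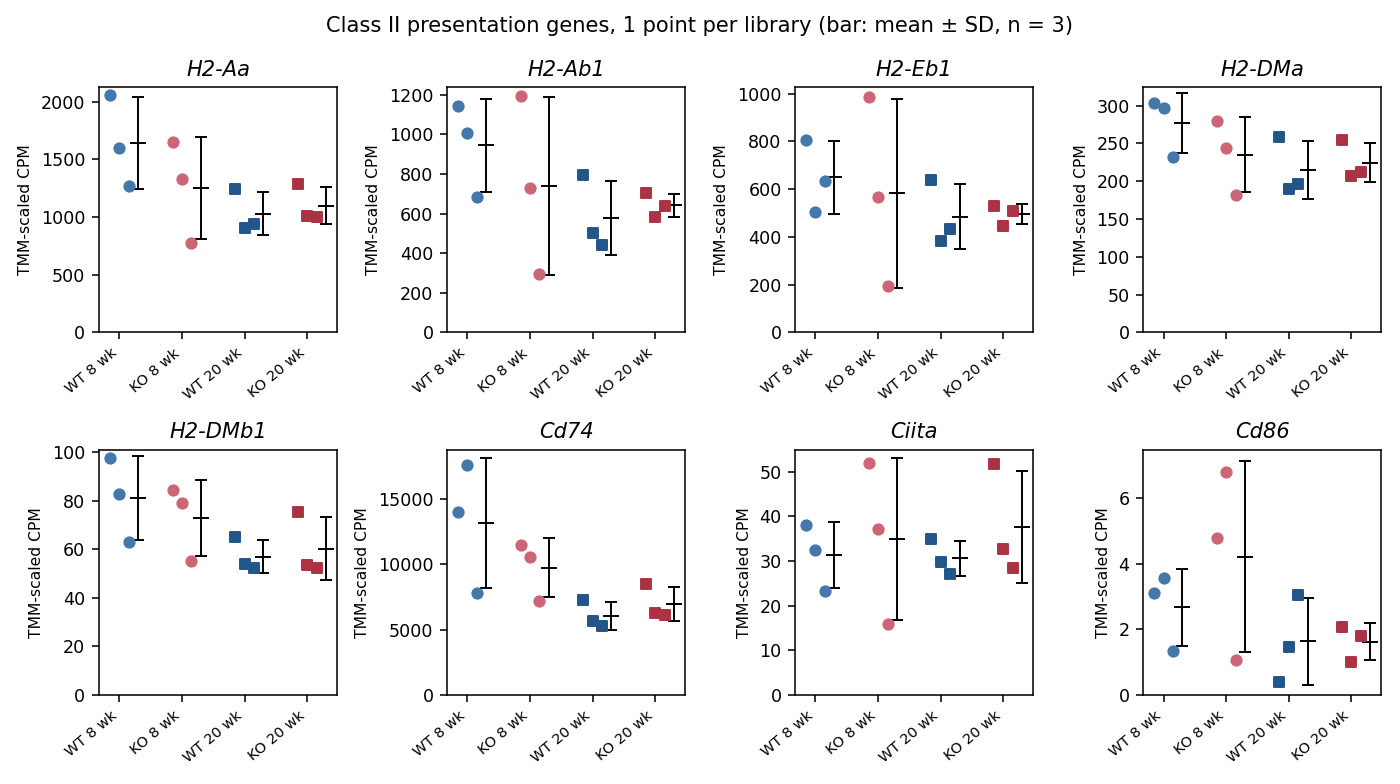
Each panel plots 1 gene in TMM-scaled CPM on a linear axis from 0, with 1 point per library in 4 groups of 3 and the mean ± SD beside them. Cd74 in WT cells lies between 7783 and 17577 CPM at 8 weeks and between 5235 and 7271 CPM at 20 weeks, whereas for Ciita and Cd86 all groups overlap.

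The comparison of genotypes asks what Rag1 in the history of an ILC2 changes, and no class II gene passed the test. A gene was called where edgeR's adjusted p (Benjamini-Hochberg) was under 0.05. At 20 weeks 0 of 8 were called, where 0.0554% of 14431 tested genes were, and 0 had an unadjusted p under 0.05, against 2.08% of all genes. At that time the median log2 fold change of knockout-labelled over WT cells was 0.09, against -0.01 over all genes. H2-Aa had 0.09 (SE 0.28), Cd74 0.20 (SE 0.30) and Ciita 0.30 (SE 0.37), each with an adjusted p of 1 in edgeR. The other 5 lay between 0.03 and 0.15. Leaving out 1 library at a time turned the sign of 7 of the 8, all but Cd74 (0.037 to 0.35), and Cd86 ran from -0.46 to 0.80. The groups of no member were separate, where 5.34% of all genes were separate and higher and 6.08% separate and lower.

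At 8 weeks 0 of 8 were called, where 0.201% of all genes were, and 0 of 8 had an unadjusted p under 0.05, against 3.62%. The log2 fold changes were -0.39 (SE 0.28) for H2-Aa, -0.35 (SE 0.40) for H2-Ab1, -0.16 (SE 0.43) for H2-Eb1 and -0.43 (SE 0.30) for Cd74. H2-DMa had -0.24 (SE 0.21), H2-DMb1 -0.15 (SE 0.23), Ciita 0.16 (SE 0.37) and Cd86 0.67 (SE 0.73). The members' median was -0.20 and that over all genes 0.02. Without the 2 libraries placed apart, Cd74 had 0.018, H2-Ab1 0.083, H2-Eb1 0.12 and H2-DMb1 0.034, so the sign of these 4 turned. Leaving out 1 library at a time, H2-Aa ran from -0.65 to -0.14, Cd74 from -0.71 to -0.17, H2-DMa from -0.39 to -0.079 and Cd86 from 0.15 to 1.12. Separate groups were found in 0 of 8, against 2.91% of all genes in the higher and 2.72% in the lower direction.

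Averaged over both times, 0 of 8 were called, where 0.222% of all genes were, and the log2 fold changes lay between -0.15 (H2-Aa, SE 0.20) and 0.35 (Cd86, SE 0.52). Of the members 0 had an unadjusted p under 0.05, against 3.71%. For the difference of the genotype effect between times 0 of 8 were called, where 0.097% were, and 0 had an unadjusted p under 0.05, against 2.18%. The largest value in size of that interaction was -0.65 (SE 1.04) for Cd86, followed by 0.64 (SE 0.42) for Cd74. DESeq2 and limma-voom also called 0 of 8 in each of these 4 genotype comparisons. All these fits were unpaired. At 20 weeks, 2 standard errors either side of the estimate spanned -0.47 to 0.65 for H2-Aa and -0.40 to 0.80 for Cd74. At 8 weeks they spanned -0.95 to 0.17 for H2-Aa and -1.03 to 0.16 for Cd74, so differences of such sizes could not be told from 0.

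From 8 to 20 weeks in WT cells 0 of 8 genes passed the test. All 8 log2 fold changes were negative, with a median of -0.59 against 0.03 over all genes, and the groups of 6 of the 8 overlapped. Cd74 went from 13124 ± 4957 to 6052 ± 1076 CPM (SD, n = 3 each), a log2 fold change of -1.12 (SE 0.30, unadjusted p = 0.00296, edgeR adjusted p = 0.152). H2-Aa went from 1643 ± 396 to 1031 ± 188 CPM (-0.67, SE 0.28, edgeR adjusted p = 0.336). H2-DMb1 had -0.51 (SE 0.23, edgeR adjusted p = 0.371), H2-Ab1 -0.70 (SE 0.40), H2-Eb1 -0.42 (SE 0.43) and H2-DMa -0.37 (SE 0.21). Ciita differed by less than its error (-0.03, SE 0.37) and ran from -0.22 to 0.12 when 1 library at a time was left out. Cd86 had -0.74 (SE 0.75) and ran from -1.53 to -0.27.

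Of these members 0 of 8 were called over time in WT cells, where 0.513% of all genes were. Cd74, H2-Aa and H2-DMb1 had an unadjusted p under 0.05, as 13.3% of all genes did. Cd74 and H2-Aa had separate groups, as 9.04% of all genes had in that direction and 10.3% in the other. For Cd74 the call depended on the setting: DESeq2 gave -1.13 with an adjusted p of 0.0118, and edgeR without WT replicate 3 of 8 weeks gave -1.40 with an adjusted p of 0.0298. Without WT replicate 2 of that time it gave -0.85 with an adjusted p of 0.328. Without both libraries placed apart it was -0.85 (adjusted p = 0.138). Over all genes DESeq2 called 465 of 14431 in this comparison. The edgeR fit without WT replicate 3 of 8 weeks called 302 of 15147, and the main fit 74 of 14431. The labels hold no dates, and weeks after transplant cannot be told apart from a batch of harvest or sequencing.

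In knockout-labelled cells the same comparison gave 0 called of 8, where 0.0624% of all genes were, and 0 with an unadjusted p under 0.05, against 8.33%. Cd74 went from 9709 ± 2257 to 6963 ± 1309 CPM (SD, n = 3 each), a log2 fold change of -0.48 (SE 0.30, edgeR adjusted p = 0.737). Cd86 had -1.39 (SE 0.74) and Ciita 0.10 (SE 0.37), while the other 5 lay between -0.27 and -0.07. Leaving out 1 library at a time turned the sign of 5 genes, H2-Ab1 among them (-0.58 to 0.31), and moved Cd86 from -1.83 to -0.87. All groups overlapped, where 8.12% of all genes were separate and lower and 8.32% separate and higher. The genotype by time values above are the test of the difference between these 2 changes.

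**Figure D2:**
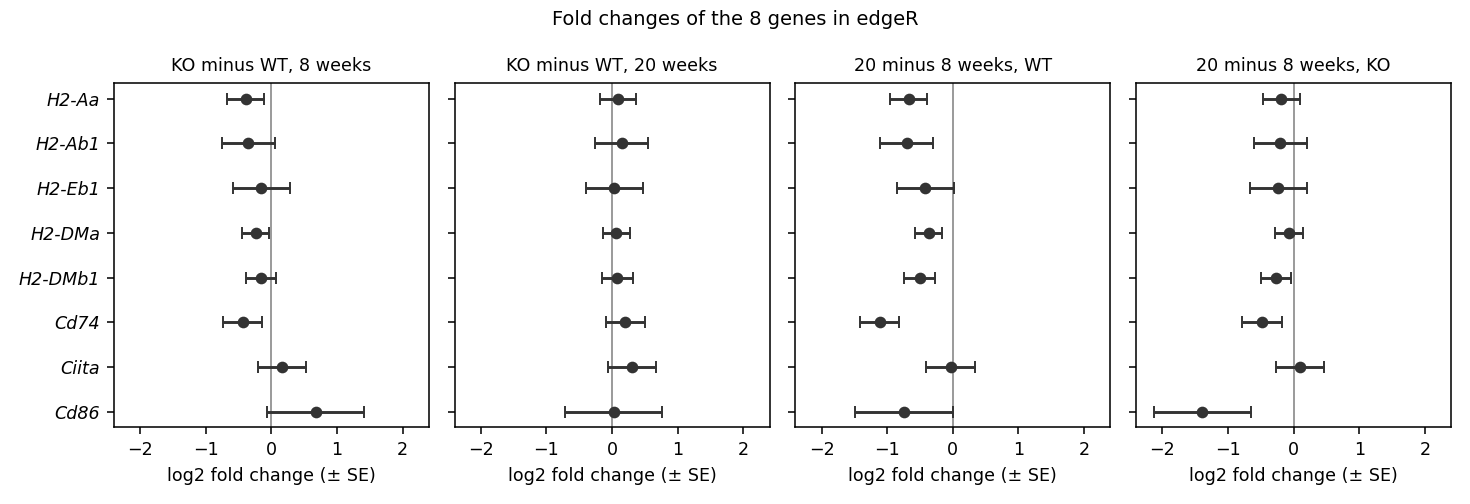
Each panel gives the log2 fold change of the 8 genes in edgeR with its standard error as a bar, for knockout-labelled minus WT cells at each time and for 20 minus 8 weeks in each genotype. The bars of Cd74 in WT cells stand farthest from 0 in units of their error (-1.12, SE 0.30), and the genotype values at 20 weeks lie between 0.03 and 0.30.

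The rest of the pathway was read from lists of 36 further genes, of which 33 were tested and 0 were called in any of the 6 comparisons. H2-DO, which restrains H2-DM, is made of H2-Oa and H2-Ob. H2-Oa was at 53.8 to 155 CPM and H2-Ob at 23.9 to 50.8 CPM, and per length H2-Oa reached 0.289 to 0.765 of H2-DMa. The DM beta gene H2-DMb2 had 126 to 246 CPM and the I-E related gene H2-Eb2 0.652 to 4.24 CPM. Over time in WT cells H2-DMb2 had a log2 fold change of -0.54 (SE 0.26), H2-Oa 0.06 (SE 0.31) and H2-Ob -0.04 (SE 0.25). Of the chain genes outside the members, 4 of 6 were tested, and H2-Eb2 had the smallest p between genotypes (averaged -0.78, SE 0.43, unadjusted p = 0.096).

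Among 9 genes of proteolysis and reduction in endosomes, 0 were called. Lgmn, which encodes an asparaginyl endopeptidase, had an averaged genotype log2 fold change of 0.30 (SE 0.18). The protease gene Ctsh had 0.37 (SE 0.23) at 8 weeks between genotypes. Over time in WT cells Ctsh had 0.60 (SE 0.23, unadjusted p = 0.0212) and Ctsl 1.16 (SE 0.53, unadjusted p = 0.049), whose adjusted p were 0.29 and 0.376 in edgeR. These 2 were the members of the pathway lists with an unadjusted p under 0.05 in that comparison, 2 of 33, where 13.3% of all genes had one.

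Of 9 regulators 8 were tested. The X box factor subunits Rfx5 (2.21 to 6.82 CPM) and Rfxap (1.84 to 4.81 CPM) were low in all libraries. Rfxap had an interaction value of -0.65 (SE 0.51). Nfyc, a subunit of the Y box factor, had 0.46 (SE 0.20, unadjusted p = 0.0367, edgeR adjusted p = 0.9999) averaged over times between genotypes and 0.60 (SE 0.28) at 20 weeks. It was at 25.9 ± 10.03 CPM in WT and 39.3 ± 8.12 CPM in knockout-labelled cells of 20 weeks (SD, n = 3 each), and these groups overlapped.

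Other costimulatory genes were also measured. Cd80 was at 4.25 to 10.2 CPM and Cd40, which receives T cell help on antigen-presenting cells, at 1.58 to 3.85 CPM. Icosl, the ligand of ICOS, was at 81.5 to 164 CPM and had a log2 fold change of -0.40 (SE 0.20) between genotypes at 8 weeks and 0.23 (SE 0.20) at 20 weeks. Its interaction was 0.63 (SE 0.29, unadjusted p = 0.0462, edgeR adjusted p = 1). Among 9 genes that carry the interferon-gamma and IL-4 signals to Ciita, 0 were called, and Ifngr1 had the smallest p at 8 weeks (-0.31, SE 0.21).

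The cells carried the marks of ILC2s in every library. Gata3, the lineage's transcription factor, was at 554 to 1357 CPM, Il1rl1, the IL-33 receptor gene, at 167 to 336 CPM, and Klrg1 at 1022 to 1770.3 CPM. Most defining markers of professional class II cells were low. Ms4a1, Cd79a and Pax5, which mark B cells, summed to 1.52 to 5.78 CPM in 11 libraries and to 29.9 CPM in knockout-labelled replicate 2 of 8 weeks. Pax5 was at 0 in 10 libraries. Flt3, Zbtb46 and Itgax, which mark dendritic cells, summed to 3.87 to 15.1 CPM, most of it Zbtb46 (3.44 to 14.1 CPM), and Itgax was at 0 in 9 libraries. Other genes of the 12 dendritic cell markers were present in every library, with Xcr1 at 8.79 to 14.9 CPM and Ccr7 at 12.1 to 25.9 CPM, and the 12 summed to 35.3 to 50.5 CPM. By group the dendritic sum was 35.3 to 38.3 CPM in WT and 39.5 to 46.3 CPM in knockout-labelled cells of 8 weeks, and 43.5 to 50.5 CPM against 39.7 to 45.4 CPM at 20 weeks.

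Csf1r and Lyz2, which mark macrophages and monocytes, summed to 3.49 to 15.3 CPM. Clec9a of dendritic cells and Fcgr1 of macrophages were listed at 0 estimated reads in all 12 libraries, where 3 reads, the limit that a count of 0 allows, would be 0.0852 to 0.292 CPM. This limit covers counting error only. In knockout-labelled replicate 2 of 8 weeks Cd79a was at 24.2 CPM. Its Cd74, at 10522 CPM, lay between the other 2 libraries of its group, and Cd74 exceeded Cd79a 434 times there, the lowest ratio of the 12 libraries, whose median was 5418 times.

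Other genes of the marker lists were not near 0. All 16 B cell markers summed here were measured, and their sum of 170.01 to 597 CPM was carried by Ighm (49.9 to 189 CPM), Cd79b (67.0 to 191 CPM) and Igkc (2.20 to 170.4 CPM). The summed level by group was 179.99 to 389 CPM in WT and 201 to 597 CPM in knockout-labelled cells of 8 weeks. At 20 weeks the sum was 216 to 326 CPM against 170.01 to 204 CPM. Of 11 T cell markers, Trbc1 (229 to 481 CPM), Trbc2 (239.7 to 510.04 CPM) and Cd3g (24.5 to 66.0 CPM) held most of the sum of 512 to 925 CPM, while Cd3e was at 0 to 3.75 CPM. In knockout-labelled libraries Cd3e reached 0.425 CPM at most. The T cell sum is thus mostly Trbc1 and Trbc2, and whether ILC2s or T cells made these transcripts was not tested. The part of such cells in the class II values was not tested.

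**Figure D3:**
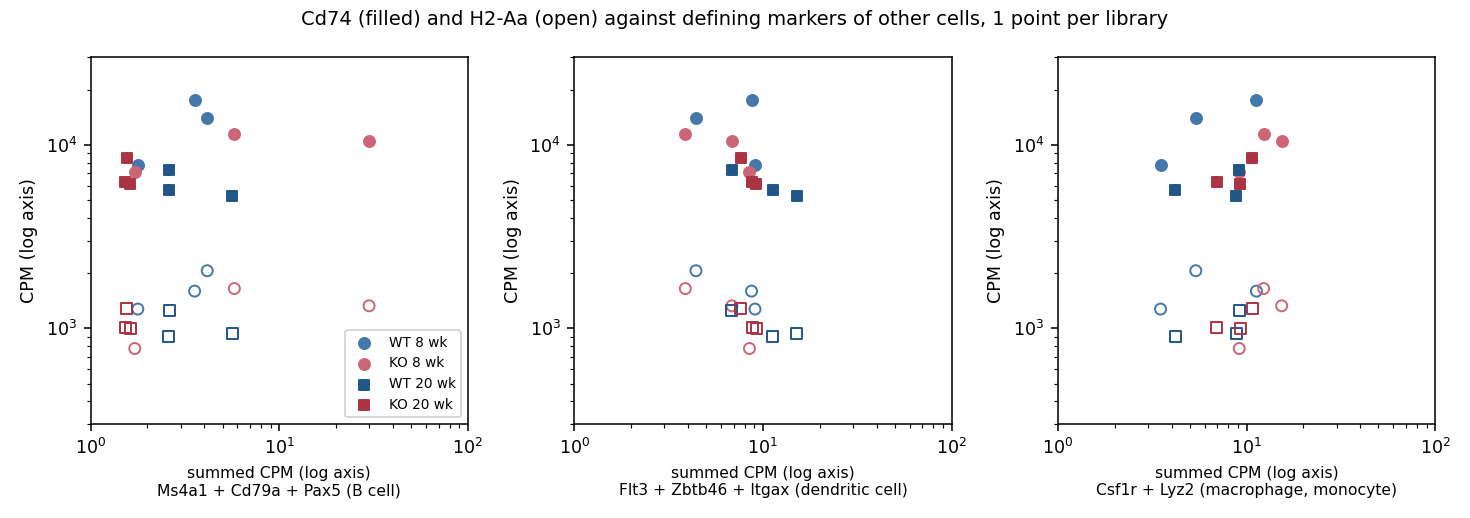
Cd74 (filled) and H2-Aa (open) in CPM are plotted against the summed CPM of defining B cell, dendritic cell and macrophage markers, both axes logarithmic, with 1 point per library for each gene and group. The library with 29.9 CPM of B cell markers has 10522 CPM of Cd74, within the range of libraries with 1.52 to 5.78 CPM of these markers.

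Marker lists and class II genes were also set side by side over time. In knockout-labelled cells the 12 tested B cell markers had a median log2 fold change of -2.22 from 8 to 20 weeks and the members -0.22. That marker median is mostly over low genes, since at most 4 of 16 passed 10 CPM in a library. The B cell sum of these cells was 201 to 597 CPM at 8 weeks, highest in replicate 2, and 170.01 to 204 CPM at 20 weeks. In WT cells the B cell markers had 0.53 and the members -0.59. The 7 tested macrophage and monocyte markers had -0.20 in WT and -0.63 in knockout-labelled cells, and the 7 dendritic cell markers 0.42 and 0.22. The 4 tested plasma cell markers had 2.57 in WT cells, where 2 of 4 had an unadjusted p under 0.05, and -1.87 in knockout-labelled cells. The 10 T cell markers had 0.35 and 0.02. These comparisons share their libraries within each genotype, and the difference between lists was not tested.

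Pairs of class II genes without Cd86 were positively correlated across libraries, and 15 of these 21 passed the test. Over the 28 pairs, the Pearson correlation of log2(CPM + 0.5) over 12 libraries had a median of 0.75 and a range of 0.38 to 0.97. For each gene, its median correlation with all 14430 other tested genes lay between -0.04 and 0.00199. Of the 28 pairs, 15 had a Benjamini-Hochberg adjusted permutation p under 0.05, over 84 relations computed with 100000 resamples, two-sided. By Spearman's rho 15 passed as well, though not all the same pairs. Over single members, 1.37% (Cd86) to 6.04% (Cd74) of all tested genes had r over 0.7, and 59 genes had r over 0.9 with Cd74. The 7 pairs with Cd86 had a median of 0.43 and 0 passed, and the other 21 had a median of 0.82.

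The closest pair was H2-Aa and H2-DMa (r = 0.967, permutation p = 1e-05, adjusted p = 0.00042, the raw p being the smallest that the resamples can give; rho = 0.937, permutation p = 4e-05, adjusted p = 0.00084). Without the 2 libraries farthest from the median of H2-Aa, r was 0.964. H2-Aa and its partner H2-Ab1 had r = 0.942 (permutation p = 3e-05, adjusted p = 0.00063; rho = 0.937, permutation p = 3e-05, adjusted p = 0.00084), and 0.942 without the 2 farthest libraries. The invariant chain followed the peptide exchange gene H2-DMb1 (r = 0.914, permutation p = 2e-05, adjusted p = 0.00056; rho = 0.937, permutation p = 1e-05, adjusted p = 0.00084). Without WT replicate 1 and knockout-labelled replicate 1 of 8 weeks, the libraries farthest from the median of H2-DMb1, r was 0.891.

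The I-E chain gene and the invariant chain gene did not pass, with r = 0.470 (permutation p = 0.124, adjusted p = 0.249; rho = 0.636, permutation p = 0.03, adjusted p = 0.0968) and 0.563 without the 2 farthest libraries. By Pearson's r, Ciita passed with 2 of the 7 other members, H2-Ab1 and H2-Eb1. By Spearman's rho it passed with H2-Ab1 and H2-Aa. Ciita and H2-Aa had r = 0.657 (permutation p = 0.0197, adjusted p = 0.0789; rho = 0.748, permutation p = 0.00696, adjusted p = 0.0344). Ciita and H2-Ab1 had r = 0.756 (permutation p = 0.00506, adjusted p = 0.0304; rho = 0.769, permutation p = 0.00476, adjusted p = 0.0286), and r was 0.394 without knockout-labelled replicates 1 and 3 of 8 weeks, so the relation rests on these libraries. Ciita and H2-Eb1 had r = 0.759 (permutation p = 0.00656, adjusted p = 0.0344; rho = 0.671, permutation p = 0.0201, adjusted p = 0.0757), and r was 0.228 without the same 2 libraries. Ciita and Cd74 had r = 0.407 (permutation p = 0.189, adjusted p = 0.299; rho = 0.587, permutation p = 0.0487, adjusted p = 0.131), and 0.528 without WT replicates 1 and 2 of 8 weeks. Centred on group means, Ciita had r of 0.949 with H2-Aa, 0.913 with H2-Ab1, 0.841 with H2-Eb1 and 0.776 with Cd74. Knockout-labelled replicate 3 of 8 weeks was the lowest of its group for each of these genes. The centred values were not computed without that library.

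The file headers give 8 or 24 processing threads, and the median r over the 28 pairs was 0.81 among the 6 libraries of 8 threads and 0.69 among the 6 of 24 threads. Centred on group means it was 0.83, and without the 2 libraries placed apart 0.82. Each pair was also taken without the 2 libraries farthest from the median of 1 of its genes, the one that comes first in the opening list. The median r was then 0.64. Among libraries of 24 threads Ciita and H2-Eb1 had r = -0.06, against 0.97 among those of 8 threads, so this pair did not hold within both.

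Marker sums were set against each member in the same way. With the summed B cell markers the 8 members had a median r of 0.48 (0.31 to 0.60) and 0 passed, with plasma cell markers 0.06 and 0 passed, and with dendritic cell markers -0.39 and 0 passed. With macrophage and monocyte markers the median was 0.53 and 1 passed, Cd74 (r = 0.711, permutation p = 0.00903, adjusted p = 0.0442; rho = 0.671, permutation p = 0.0204, adjusted p = 0.0757). Without WT replicate 2 of 8 weeks and WT replicate 2 of 20 weeks its r was 0.491. The most abundant genes of that list were Lyz2 (0.928 to 11.5 CPM), Csf1r (2.51 to 6.72 CPM) and Cd68 (1.90 to 11.3 CPM).

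With T cell markers the median was 0.54 and 2 passed, H2-Ab1 (r = 0.713, permutation p = 0.00947, adjusted p = 0.0442; rho = 0.748, permutation p = 0.00642, adjusted p = 0.0337) and H2-Eb1 (r = 0.762, permutation p = 0.00618, adjusted p = 0.0344; rho = 0.664, permutation p = 0.0207, adjusted p = 0.0757). Without knockout-labelled replicate 3 of 8 weeks and replicate 2 of 20 weeks these were 0.399 and 0.355, so they rest on those libraries. The T cell sum was mostly Trbc1 and Trbc2, so its correlations mostly follow these genes and are no measure of T cells. With stromal and endothelial markers the median was 0.33 and with those of mast cells, basophils and eosinophils -0.21, and 0 passed in either. Among the 6 libraries of 24 threads the median r with T cell markers was 0.11, and among the 6 of 8 threads 0.75. With stromal and endothelial markers it was 0.82 among those of 24 threads and 0.42 among those of 8. That sum, 111 to 156 CPM, was almost all Pecam1 (109 to 154 CPM), so its correlations mostly follow 1 gene.

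Centred on group means, the median r was higher for 4 of the 5 marker sums of lymphoid and myeloid cells and was lower for macrophages and monocytes. It was then 0.71 with plasma cell markers, 0.71 with T cell markers, 0.63 with B cell markers, 0.46 with macrophage and monocyte markers and 0.17 with dendritic cell markers, beside 0.83 over the member pairs. The T cell sum reached 0.849 with H2-Ab1 and 0.850 with H2-Eb1, and the plasma cell sum 0.803 with H2-Ab1 and 0.804 with H2-Eb1. The plasma cell sum was low, at 0.0815 to 17.4 CPM. Knockout-labelled replicate 3 of 8 weeks was the lowest library for both sums, H2-Ab1 and H2-Eb1. The centred values were not computed without it. The difference between member pairs and marker sums was not tested.

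**Figure D4:**
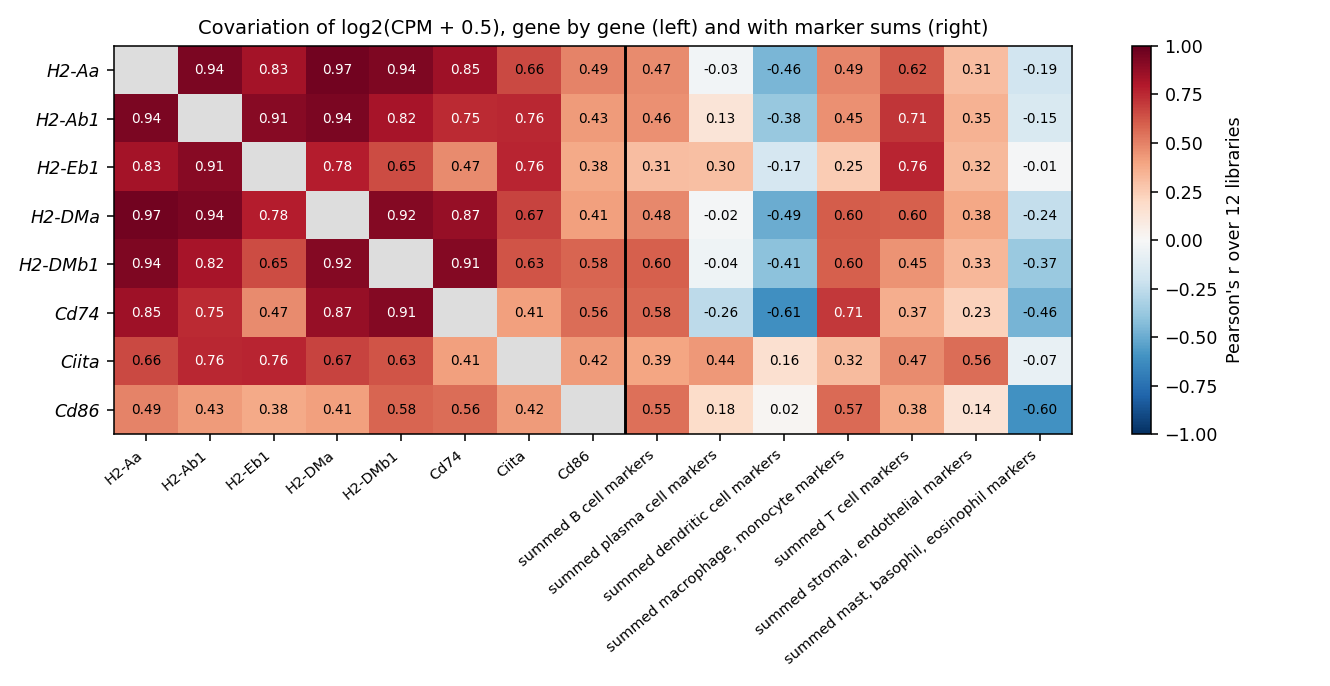
The colour and the number in each cell give Pearson's r of log2(CPM + 0.5) over 12 libraries, between the 8 genes on the left and with the summed markers of 7 other cell types on the right. H2-Aa, H2-Ab1, H2-DMa and H2-DMb1 form a block with r of 0.82 to 0.97, and the marker sums lie at or below 0.762 in these uncentred values, where the T cell sum with H2-Eb1 is the highest. Centred on group means, that pair has 0.850.

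The genes whose pattern was most like each member were ranked by r over the 12 libraries among all tested genes. For H2-Aa the first 3 were H2-DMa (0.97), H2-Ab1 (0.94) and H2-DMb1 (0.94), then Eif6 and Plpp5. For H2-DMa they were H2-Aa, H2-Ab1, Prf1 (0.93), Arnt2 and Slamf1. For H2-DMb1 they were H2-DMb2 (0.95), whose k-mers it shares, H2-Aa, H2-T22 (0.92), H2-DMa and Cd74. For H2-Ab1 they were Plekhj1 (0.94), H2-Aa, H2-DMa, Batf (0.94) and Fam173a. For Cd74 the first 5 held no class II gene and were Alad (0.96), Cops6, Nsfl1c, Mrnip and Mydgf. For H2-Eb1 they were Eif1ad (0.95), Plekhj1, Ccdc12, Puf60 and Icam1, for Ciita Wdr6 (0.94), Sgpl1, Pctp, Wfs1 and Il18, and for Cd86 Hsd17b10 (0.89), Ifi35, Gm8741, Mcoln2 and Gfer.

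The division of a gene's TPM among its transcripts differed between libraries. Cd74-201 held 74.6% to 88.9% of the TPM of Cd74. Cd74-202, the longer form of 1410 bases, held 8.01% to 15.2% in 11 libraries and 0% in WT replicate 2 of 8 weeks, where Cd74-203, of 1345 bases, held 25.4%. Cd74-203 held 6.26% in knockout-labelled replicate 2 of 8 weeks and 0.0152% to 0.145% in the other 10.

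The same WT library gave 22.9% of H2-Aa to H2-Aa-204, of 826 bases, against at most 0.377% elsewhere. It gave 7.24% of H2-DMa to the retained intron transcript H2-DMa-202, against 41.9% to 59.8% in the other 11. Estimates of overlapping transcripts divide shared k-mers by a model, and this library is 1 of the 2 placed apart. Cd86, on few reads, was divided least evenly: the coding form Cd86-201 held 0% in knockout-labelled replicate 3 and 97.2% in knockout-labelled replicate 1 of 8 weeks, with a median of 71.6%. The processed transcript Cd86-203 held 2.82% to 89.3%. Ciita, whose cell types are known to use different first exons, and H2-Eb1 had 1 transcript each in the files, so their forms could not be told apart.

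**Figure D5:**
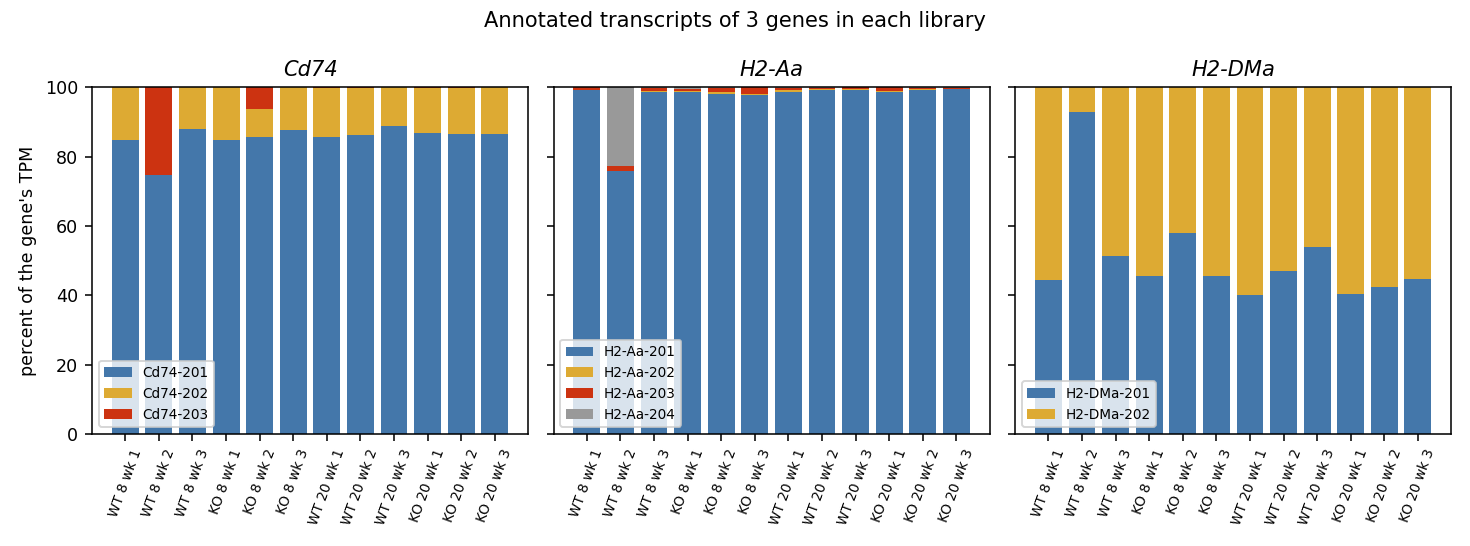
Stacked bars give the percent of the TPM of Cd74, H2-Aa and H2-DMa in each annotated transcript, 1 bar per library. WT replicate 2 of 8 weeks stands out in all 3 genes, with 25.4% in Cd74-203, 22.9% in H2-Aa-204 and 7.24% in H2-DMa-202.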

How the data were processed

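RNA from 12 libraries of sorted ILC2s was analysed in 4 groups of 3. Per the file headers, sailfish 0.6.3 had quantified Ensembl release 76 transcripts from k-mers of 20 bases; the deposited values are an estimated count (expected number of reads) and a TPM for every transcript. The submitters' processing notes name further tools, STAR 2.0.4b and featureCounts 1.4.5 among them, whose part in these files is unclear. Whether counting used strand is not given in the sources used here.

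Of 86127 transcripts, 83739 (97.2%) had an identifier in GENCODE M21 (GRCm38), through which they were added up per gene, and the rest held 1.01% to 1.54% of a library's reads. Estimated counts were rounded, filtered with filterByExpr, scaled by TMM and fitted for 14431 genes in edgeR 4.0.16 (quasi-likelihood, 4 group means), with Benjamini-Hochberg adjustment over all of them. DESeq2 1.42.0 and limma 3.58.1 were alternatives. The fit and the correlation test were tested on simulated data. Correlations use log2(CPM + 0.5) and deposited TPM only for levels between genes, and no p was computed for the 8 genes as a score.

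Always named were the 8 genes, H2-Oa, H2-Ob, H2-DMb2, H2-Eb2, H2-Ea-ps, Cd80, Cd40, Rfx5, defining markers, the 3 pathway genes of smallest p in each genotype comparison, the 3 most abundant markers of any list with r of at least 0.7, and the 5 genes most like each member. Ctsl, Ighm, Cd79b, Igkc, Clec9a, Fcgr1, Xcr1, Ccr7 and Pecam1 were named after their values were seen. The members and lists were chosen with earlier results of these data known. Promoters were matched by symbol in a RefSeq table, which lacks H2-Ab1, Cd74, Ciita and Cd86. Alternatives were other tools, scalings, filters, covariates and left-out libraries. A B cell marker gene is not reported here and was left out of its list and sums.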

Additional observations from a re-analysis of the deposited data

How the results depend on the processing

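Over 21 alternative settings, 992 values of 48 log2 fold changes were recomputed: 924 kept their direction and side of the threshold, 66 turned sign, 2 passed the threshold and 0 lost it. The number of members called was 0 throughout, except 1 over time in WT cells (Cd74) under DESeq2; leaving out 1 library gave 0 to 1 there. Over time in WT cells DESeq2 called 465 of 14431 genes, and edgeR without WT replicate 3 of 8 weeks 302 of 15147. The cause was not tested for any change of sign.

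With counts scaled from TPM the sign turned at 20 weeks for Cd86 (-0.17), and over time in knockout-labelled cells for H2-DMa (0.030). With thread number as a covariate the sign turned at 20 weeks for Cd86 (-0.33), and averaged over times for H2-Ab1 (0.060), H2-DMb1 (0.028) and Cd74 (0.035), and over time in knockout-labelled cells for H2-Ab1 (0.052) and H2-DMa (0.037). Without both libraries placed apart the sign turned at 8 weeks for H2-Ab1 (0.083), H2-Eb1 (0.12), H2-DMb1 (0.034) and Cd74 (0.018), and averaged over times for H2-Ab1 (0.12), H2-Eb1 (0.079), H2-DMa (0.026), H2-DMb1 (0.063) and Cd74 (0.12), and in the interaction for H2-Eb1 (-0.073) and Ciita (-0.23), and over time in knockout-labelled cells for Ciita (-0.24). With limma-voom the sign turned over time in knockout-labelled cells for H2-Ab1 (0.028) and H2-Eb1 (0.073).

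Ranges when 1 library at a time was left out, for genes whose sign turned, were as follows. At 20 weeks the range was -0.037 to 0.25 for H2-Aa, -0.020 to 0.44 for H2-Ab1, -0.12 to 0.28 for H2-Eb1, -0.033 to 0.22 for H2-DMa, -0.11 to 0.18 for H2-DMb1, -0.0036 to 0.46 for Ciita and -0.46 to 0.80 for Cd86. At 8 weeks the range was -0.89 to 0.031 for H2-Ab1, -0.78 to 0.27 for H2-Eb1, -0.32 to 0.018 for H2-DMb1 and -0.24 to 0.51 for Ciita. Averaged over times the range was -0.37 to 0.095 for H2-Ab1, -0.38 to 0.15 for H2-Eb1, -0.14 to 0.055 for H2-DMb1 and -0.25 to 0.019 for Cd74. In the interaction the range was -0.22 to 0.80 for H2-Eb1, -0.20 to 0.53 for Ciita and -1.13 to 0.14 for Cd86. Over time in WT cells the range was -0.22 to 0.12 for Ciita. Over time in knockout-labelled cells the range was -0.43 to 0.051 for H2-Aa, -0.58 to 0.31 for H2-Ab1, -0.64 to 0.37 for H2-Eb1, -0.22 to 0.069 for H2-DMa and -0.24 to 0.49 for Ciita.

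With a replicate block 0 members were called in each of the 6 comparisons, and Cd74 over time in WT cells had -1.07 (edgeR adjusted p = 0.113). For time, that block tied equal replicate numbers of 8 and 20 weeks, a link that the labels do not give. Their deviations from group means correlated at 0.151, 0.0510 and 0.191 in WT and -0.163, -0.0868 and -0.179 in knockout-labelled cells. Deviations of same-numbered WT and knockout-labelled libraries correlated at 0.288, 0.195 and 0.0902 at 8 weeks and 0.0743, 0.109 and 0.145 at 20 weeks, so not every pair passed 0.1 and the numbers were not taken as pairs. Every library correlated best with its own number in the other genotype at its time, a hint of pairing from the data and not from the design. Both genotypes came from mixed chimeras, and the labels do not say whether a number marks a shared host. The genotype errors and p-values of the main fit are unpaired and ignore any such sharing. Cd86 rests on 11.6 to 141 reads.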
